A study of Mus musculus with 10 samples.

Results

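The genes described here are 42 genes that copy DNA in S phase or supply its building blocks. They comprise factors that license and activate replication origins, primase and polymerase subunits, the sliding clamp and its loader, enzymes of flap removal and ligation, the single-strand binding protein, enzymes of deoxynucleotide supply, chromatin and histone mRNA factors and fork protection factors. They were taken by gene symbol from a list that leaves out the MCM helicase, and all 42 were found among the 12803 genes of the table. RNA was sequenced from muscle stem cells (satellite cells) of young male C57BL/6 mice, sorted from limb muscle as CD45- CD31- Sca1- VCAM+ cells, with 1 animal per library. Fresh cells (n = 3) were taken at 0 h, directly after sorting. Vehicle cultures (n = 3) were kept for 24 h with the solvent DMSO, and Tubastatin A cultures (n = 4) for 24 h with Tubastatin A at 40 µM, dissolved in DMSO. Tubastatin A inhibits HDAC6, a cytoplasmic enzyme that removes acetyl groups from tubulin. Both cultures used Ham's F-10 medium with horse serum and antibiotics on plates coated with extracellular matrix. The labels also give the fresh cells the treatment vehicle, although they carry a time of 0 h. No label ties an animal of one group to an animal of another.

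Before a cell copies its DNA, the origin recognition complex with CDC6 and CDT1 loads the replicative helicase at origins, and geminin keeps CDT1 from loading it again in the same cycle. CDC45 and the GINS complex then activate the helicase, primase with DNA polymerase alpha starts each new strand, and polymerases epsilon and delta extend the strands while held on DNA by the clamp PCNA. Many of these genes are targets of E2F transcription factors: retinoblastoma family proteins hold them down in resting cells, and they are switched on as a cell passes from G1 to S phase. Adult muscle stem cells rest outside the cell cycle until injury or culture activates them.

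Levels are given as RPKM (reads per unit of gene length and of scaled library size) for each library. A change is a difference of mean log2(RPKM + 1), fitted with limma over all 12803 genes, and a gene is called higher or lower where its adjusted p (Benjamini-Hochberg) was under 0.05. The added 1 RPKM makes folds too small where levels are low, so ratios of mean RPKM are given where levels are low. Words such as rose and fell name differences between groups, since each culture was sampled at 24 h alone. Reads in the table came to 37.0M to 54.5M per library, and the 42 genes held from 4 reads (Clspn in Tubastatin A library 4) to 43576 reads (Rrm2 in vehicle library 2). Fresh libraries differed from each other more than cultured ones did: over all genes, chi-square per degree of freedom was 443.2 and 312.5 between fresh library 1 and the others and 156.2 between fresh libraries 2 and 3, against 26.8 to 74.5 among cultured libraries of 1 group. The deposited scaling also set fresh cells apart, since reads in the table came to 1.37 to 1.39 times the scaled size in fresh libraries and to 0.82 to 0.92 times in cultured ones. Comparisons with fresh cells were therefore made again after scaling each library to the same sum of RPKM and after median ratio scaling. Equal sums moved the median change of all genes in Tubastatin A against fresh cells from -0.03 to 0.43, and in vehicle against fresh cells from -0.03 to 0.33.

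In vehicle culture the replication genes rose almost as a whole. Of the 42 genes, 41 were called higher than in fresh cells and none lower, with a median log2 change of 2.07 (-0.03 over all genes), beside 32.0% of all genes called higher and 35.0% called lower. With Tubastatin A all 42 were called lower than with vehicle, with a median of -2.50 (0.02 over all genes) and a range from -4.60 to -0.61, beside 29.7% of all genes called lower and 29.6% higher. In both of these comparisons the call of each of the 42 genes was the same with median ratio scaling, and with equal sums of RPKM the 42nd gene, Slbp, was also called higher in vehicle culture. Both comparisons share the vehicle libraries, so they are not independent. In bulk RNA, fewer cells in S phase and less RNA per cell cannot be told apart.

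Against fresh cells, the 42 genes in the Tubastatin A cultures did not all lie on the same side. There 6 genes were called higher (Cdt1, Gins3, Gins4, Pole2, Rfc1 and Rpa1), 23 lower and 13 not called, with a median of -0.46 (-0.03 over all genes), beside 29.8% of all genes called higher and 35.2% called lower. The 4 Tubastatin A libraries all lay above the 3 fresh libraries for 4 of the 42 genes and all below them for 23, beside 28.0% and 33.3% of all genes. Thus the share lower was above the background, and the share higher was below it. Under equal sums of RPKM the counts became 15 higher, 13 lower and 14 not called, while over all genes the split moved from 3811 higher and 4503 lower to 7004 higher and 2481 lower. The same 6 genes were called higher under all 3 scalings, and 13 were called lower under all 3: Cdc6, Chaf1a, Chaf1b, Clspn, Dtl, Gins1, Gins2, Lig1, Rfc5, Rpa2, Rrm2, Slbp and Timeless. Where a gene outside these 19 is said below to be lower than in fresh cells, the call holds for the deposited scaling and was absent with equal sums. The 9 genes not called with the deposited scaling but called higher with equal sums were Gmnn, Pola2, Prim1, Prim2, Pold2, Rpa3, Tyms, Dut and Tipin. Without fresh library 1, which stood apart, 4 genes were called higher and 23 lower.

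**Figure D1:**
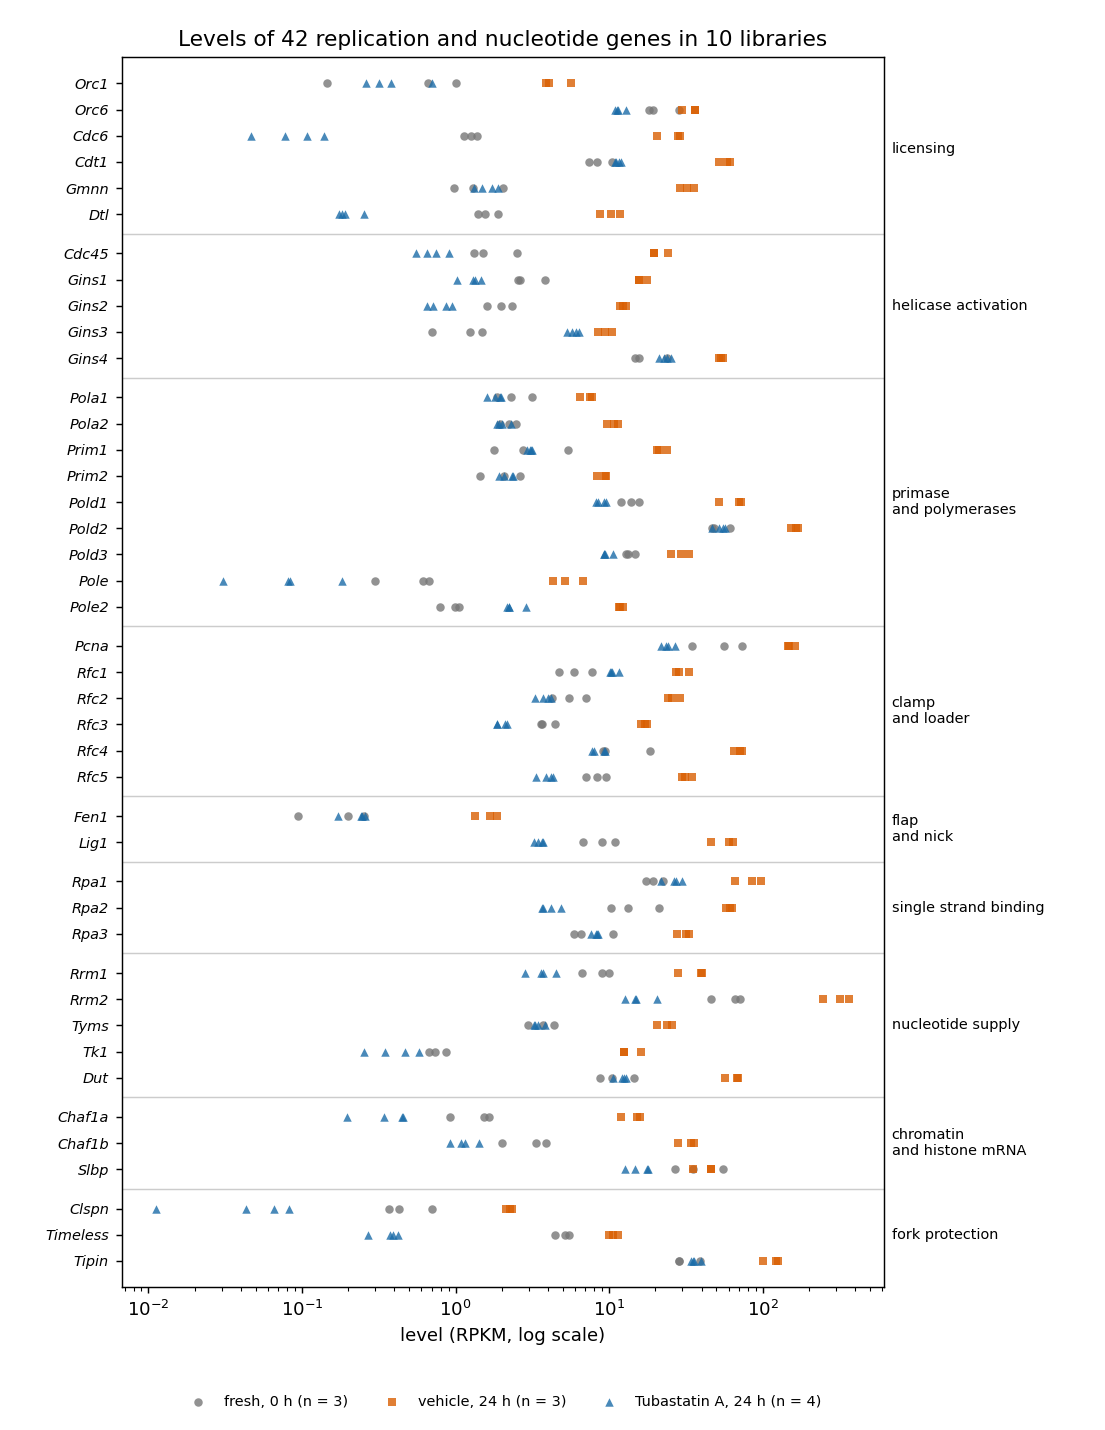
Level of each of the 42 genes in each of the 10 libraries, grouped by role (horizontal axis: RPKM, log scale; circles: fresh cells, n = 3; squares: vehicle cultures, n = 3; triangles: Tubastatin A cultures, n = 4). Vehicle cultures lie to the right of Tubastatin A cultures in all 42 genes, and Tubastatin A cultures lie to the left of fresh cells in 23, most visibly in Cdc6, Dtl, Pole, Clspn and Timeless.

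Promoter sequences were read for genes of this set because they moved together in culture. RefSeq windows on GRCm38.p6, from 250 bases before to 50 bases after the annotated start, were at hand for 34 of the 42 genes (not for Rfc2, Prim2, Pole, Gins1, Gins2, Gins4, Gmnn and Tipin) and were searched on both strands for the E2F-type letters TTTCGCGC and TTTGGCGC and TTTCCCGC and TTTGCCGC. Of the 34 genes, 12 (35.3%) held a match, against 704 of 27025 genes (2.6%) with such a window and 476 of 9980 genes (4.77%) that were also in the expression table. The 12 were Orc1, Cdc6, Cdt1, Dtl, Gins3, Pola1, Pold1, Pold3, Pole2, Rfc3, Lig1 and Clspn, and 11 of their 13 matches began within 100 bases of the start. The NF-Y-type pentamer CCAAT was in 19 of the 34 genes (55.9%), against 41.1% of all genes with a window and 43% of those in the table. The CHR-type hexamers (TTTGAA or, with one other base, TTCGAA) were in 5 of the 34 (14.7%), against 21.7% and 15.9%. No E2F-type match shared a base with a match of another type.

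The matches of 6 genes are shown with 8 bases on either side, 5′ to 3′ on the strand of the gene and with the match in capitals, because these genes were alike in holding a match and in falling with Tubastatin A against vehicle, yet stood on opposite sides of fresh cells. The first 3 were lower with Tubastatin A than in fresh cells under all 3 scalings, and the last 3 were higher. The call of Cdt1 was lost without fresh library 1. Of the other genes with a match, Lig1 was also lower under all 3 scalings, and Orc1 and Pola1 were not called under any. The calls of Pold1, Pold3 and Rfc3 differed between scalings.
Cdc6, chr11:98908005-98908028: ggtggagaGCGGGAAAtcgcctgg
Dtl, chr1:191575537-191575560: gacgtcagTTTGGCGCggagtttg
Clspn, chr4:126556993-126557016: gcgtctggGCGCGAAAgctcgaac
Gins3, chr8:95633510-95633533: agtgcggcGCGGGAAAgcgagttt
Pole2, chr12:69228165-69228188: cggcggtgGCGCCAAAtcgcgaac
Cdt1, chr8:122568039-122568062: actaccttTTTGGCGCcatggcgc
The match of Cdc6 and that of Gins3 have the same 8 letters, and so do those of Dtl and Cdt1, on the gene's strand. They began 138 bases before the annotated start in Cdc6, 8 before it in Dtl and 41 before it in Gins3, and at base 22 after it in Clspn, 11 in Pole2 and 33 in Cdt1. A match is a description of letters and shows no binding.

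**Figure D2:**
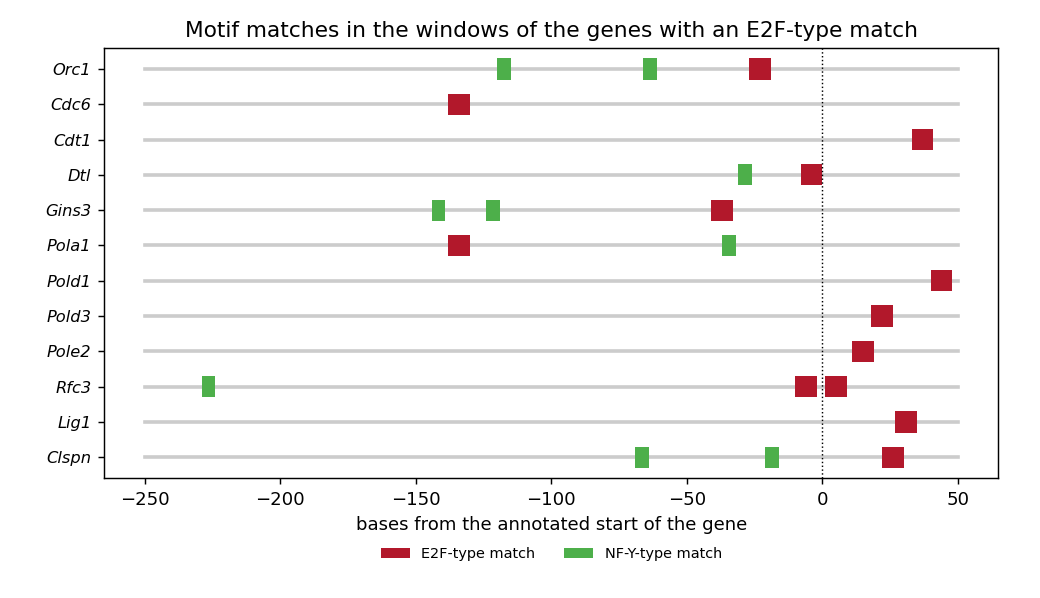
Positions of E2F-type matches (red) and NF-Y-type matches (green) in the promoter windows of the 12 genes with an E2F-type match (horizontal axis: bases from the annotated start, dotted line; grey bar: the window from 250 bases before to 50 after it). The red matches lie within 100 bases of the start in all genes but Cdc6 and Pola1, where they begin 138 bases before it.

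Among the 6 licensing genes, all rose in vehicle culture and all fell with Tubastatin A. Cdc6, which loads the helicase together with CDT1, measured 1.37, 1.13 and 1.26 RPKM in the fresh libraries, 29.0, 28.1 and 20.4 RPKM with vehicle and 0.107, 0.140, 0.0465 and 0.0771 RPKM with Tubastatin A. The 3 groups did not overlap, and the Tubastatin A libraries were the lowest, with 11 to 42 reads each. The log2 change was 3.56 (SE 0.14, adjusted p = 1.3e-09) in vehicle against fresh cells and -4.60 (SE 0.13, adjusted p = 8.6e-10) in Tubastatin A against vehicle, where mean RPKM was 279 times lower, the widest ratio of the 42 genes. Tubastatin A cultures were also below fresh cells, at -1.04 (SE 0.13, adjusted p = 2.1e-05), with mean RPKM 13.5 times lower. Dtl, the substrate receptor of the ubiquitin ligase that destroys CDT1 in S phase, had the same order of groups: 1.39, 1.55 and 1.89 RPKM in fresh cells, 11.8, 10.3 and 8.68 RPKM with vehicle and 0.182, 0.192, 0.255 and 0.175 RPKM with Tubastatin A. Its change from fresh cells to Tubastatin A was -1.12 (SE 0.12, adjusted p = 5.8e-06), with mean RPKM 8.025 times lower.

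Cdt1 itself kept another order. It measured 7.38, 10.4 and 8.32 RPKM in fresh cells, 52.0, 61.4 and 58.7 RPKM with vehicle and 12.0, 11.1, 10.8 and 11.5 RPKM with Tubastatin A. It was lower by 2.23 on the log2 scale with Tubastatin A than with vehicle (adjusted p = 3.1e-08). It stood 0.36 above fresh cells (adjusted p = 0.018), a call that was lost without fresh library 1 (0.26, adjusted p = 0.061). Gmnn, which encodes the CDT1 inhibitor geminin, had the largest log2 rise of the 42 genes in vehicle culture. Its fresh libraries held 0.972, 2.03 and 1.30 RPKM, its vehicle libraries 28.8, 35.7 and 32.1 RPKM and its Tubastatin A libraries 1.32, 1.496, 1.72 and 1.89 RPKM. The rise was 3.79 (SE 0.17, adjusted p = 3.1e-09), and Tubastatin A and fresh libraries overlapped (0.12, adjusted p = 0.53), while with equal sums Gmnn was called higher than in fresh cells (0.53, adjusted p = 0.004). The ratio of Cdt1 to Gmnn RPKM was 7.60, 5.11 and 6.42 in fresh cells, 1.80, 1.72 and 1.83 with vehicle and 9.06, 7.44, 6.31 and 6.11 with Tubastatin A.

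The 2 origin recognition subunits differed in level and in size of change. Orc1, the subunit whose amount varies through the cell cycle, measured 0.146, 1.003 and 0.657 RPKM in fresh cells, 3.88, 5.66 and 4.07 RPKM with vehicle and 0.263, 0.315, 0.698 and 0.383 RPKM with Tubastatin A. The last group overlapped fresh cells, in which 20, 103 and 71 reads were counted and the coefficient of variation, 71.6%, was the highest of the 42 genes. Orc6 was higher throughout and moved less, with 19.3, 28.6 and 18.1 RPKM in fresh cells, 29.9, 36.4 and 36.2 RPKM with vehicle and 10.9, 11.4, 11.3 and 12.8 RPKM with Tubastatin A. Its changes were 0.64 (SE 0.16, adjusted p = 0.0039) in vehicle against fresh cells and -0.84 (SE 0.15, adjusted p = 0.00039) in Tubastatin A against fresh cells, the second only -0.16 and not called with equal sums (adjusted p = 0.26).

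Among the helicase activators, the 4 GINS subunits, which form a single complex, did not all lie on the same side of fresh cells with Tubastatin A. In the complexes described here, 50% of subunit ratios had Tubastatin A and fresh ranges apart, against 63.4% of ratios between genes at large. Cdc45, the helicase cofactor, rose from 1.78 ± 0.636 to 21.1 ± 2.75 RPKM in vehicle culture and stood at 0.712 ± 0.148 RPKM with Tubastatin A (means ± SD). Gins1 and Gins2 followed the same order, with means of 3.00, 16.3 and 1.28 RPKM for Gins1 in fresh, vehicle and Tubastatin A libraries. For Gins2 the libraries held 1.59, 2.31 and 1.99 RPKM in fresh cells, 12.2, 12.9 and 11.7 RPKM with vehicle and 0.653, 0.951, 0.717 and 0.871 RPKM with Tubastatin A. There it was below fresh cells by 0.72 on the log2 scale (adjusted p = 0.0002), with mean RPKM 2.46 times lower. Exons of Gins2 overlap those of Gse1 on the other strand over 67.3% of their length, and since use of strand is not stated, reads of the pair may not be separable.

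Gins3 was the gene of the 42 that Tubastatin A moved least against vehicle. Fresh cells held 1.49, 0.700 and 1.24 RPKM, vehicle cultures 9.41, 10.5 and 8.47 RPKM and Tubastatin A cultures 6.32, 5.75, 5.28 and 6.05 RPKM. The groups did not overlap, and the Tubastatin A libraries lay between the other two, nearer to vehicle. The log2 change against fresh cells was 1.69 (SE 0.14, adjusted p = 8.6e-07), the largest of the 42 genes in that direction, with a ratio of means of 5.12. Against vehicle the log2 change was -0.61 (SE 0.14, adjusted p = 0.003). Thus Gins3 with Tubastatin A stood at 61.8% of its vehicle level, against 7.83% for Gins1 and 6.50% for Gins2. Gins4 stood at 43.5%. It measured 14.8, 23.8 and 15.6 RPKM in fresh cells, 51.6, 55.1 and 53.8 RPKM with vehicle and 21.1, 23.9, 22.7 and 25.3 RPKM with Tubastatin A. Fresh library 2 overlapped the Tubastatin A libraries, and the call of Gins4 as higher than fresh (0.38, adjusted p = 0.04) was lost without fresh library 1 or 3 or Tubastatin A library 2, 3 or 4 (adjusted p from 0.064 to 0.14) and with the replicate number as a block (adjusted p = 0.066).

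The primase and polymerase genes, 9 in all, rose in vehicle culture and fell with Tubastatin A, and 5 of them were not called against fresh cells. These 5 were the 4 subunits of polymerase alpha and primase, which lay down the first stretch of each strand, and Pold2. Pola1, the catalytic subunit, measured 2.42 ± 0.649, 7.23 ± 0.655 and 1.83 ± 0.163 RPKM in fresh cells, with vehicle and with Tubastatin A. Prim1, which makes the RNA primer, measured 1.77, 5.39 and 2.73 RPKM in fresh cells, 21.3, 23.8 and 20.4 RPKM with vehicle and 2.92, 3.04, 3.13 and 3.11 RPKM with Tubastatin A. Fresh values spread around those with Tubastatin A, whose coefficient of variation, 3.16%, was the lowest of the 42 genes in that group. Pola2 and Prim2 had like orders, at 19.0% and 23.9% of the vehicle mean with Tubastatin A and 20.8% and 22.4% in fresh cells. All 6 ratios between these 4 genes overlapped between Tubastatin A and fresh cells. Under equal sums of RPKM, Pola2, Prim1, Prim2 and Pold2 were called higher than in fresh cells (Pola2 0.39, adjusted p = 0.013).

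Polymerase delta, which copies the lagging strand, was represented by its catalytic subunit Pold1 and by Pold2 and Pold3. Pold2 had the highest level of the 42 genes with Tubastatin A, at 51.9, 55.4, 46.9 and 56.5 RPKM, and overlapped the fresh libraries at 47.0, 61.0 and 48.0 RPKM, both below vehicle at 152, 169 and 165 RPKM. Pold1 was at 13.9 ± 1.92, 64.7 ± 11.4 and 8.87 ± 0.670 RPKM and Pold3 at 13.7 ± 0.903, 29.3 ± 3.92 and 9.61 ± 0.697 RPKM in fresh cells, with vehicle and with Tubastatin A. Both were lower than in fresh cells with the deposited scaling (-0.58 and -0.47), and the sign turned with equal sums (0.08 and 0.20, neither called).

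The 2 genes of polymerase epsilon, the leading strand enzyme, moved to opposite sides of fresh cells. Pole, the catalytic subunit, measured 0.674, 0.297 and 0.612 RPKM in fresh cells, 6.78, 5.19 and 4.33 RPKM with vehicle and 0.0833, 0.182, 0.0811 and 0.0307 RPKM with Tubastatin A, the last from 17 to 117 reads. It was 57.6 times lower with Tubastatin A than with vehicle and 5.59 times lower than in fresh cells by mean RPKM, with a log2 change against fresh cells of -0.47 (SE 0.13, adjusted p = 0.0084) that was not called with equal sums (-0.31, adjusted p = 0.073). Pole2, the second subunit, measured 0.989, 1.06 and 0.793 RPKM in fresh cells, 11.6, 12.2 and 11.8 RPKM with vehicle and 2.22, 2.22, 2.18 and 2.88 RPKM with Tubastatin A. Its 4 Tubastatin A libraries were all above fresh cells, with a change of 0.79 (SE 0.11, adjusted p = 6.9e-05) and a ratio of means of 2.51.

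Of the clamp and its loader, all 6 genes rose in vehicle culture and fell with Tubastatin A. Pcna, the clamp that tethers polymerases to DNA, measured 34.6, 73.5 and 55.9 RPKM in fresh cells, 147, 163 and 148 RPKM with vehicle and 23.4, 24.2, 21.8 and 27.1 RPKM with Tubastatin A. All 4 Tubastatin A libraries were below all 3 fresh libraries (-1.09 (SE 0.20, adjusted p = 0.00047)), though with equal sums the change was -0.38 and not called (adjusted p = 0.067). Rfc1, the large subunit of the loader, stood on the other side of fresh cells: 7.79, 4.75 and 5.88 RPKM there, 33.4, 27.4 and 28.5 RPKM with vehicle and 10.3, 11.6, 10.4 and 10.1 RPKM with Tubastatin A. Its change against fresh cells was 0.72 (SE 0.14, adjusted p = 0.00078). Of the small subunits, Rfc5 was lower than in fresh cells under all 3 scalings, at 3.36, 4.20, 3.91 and 4.29 RPKM with Tubastatin A against 7.08, 9.52 and 8.40 RPKM. Rfc2 and Rfc3 were lower with the deposited scaling (-0.44 and -0.71), Rfc2 not without fresh library 2 or Tubastatin A library 2. With equal sums neither was called, and Rfc2 changed sign (0.15). Rfc4 was not called (-0.41, adjusted p = 0.091): fresh library 2 held 18.6 RPKM against 9.34 and 9.18 in the others, and it was called lower without fresh library 1 or 3 (-0.56 and -0.57).

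Lig1, the ligase that joins lagging strand fragments, rose from 6.73, 9.04 and 10.9 RPKM in fresh cells to 60.3, 64.2 and 46.2 RPKM with vehicle and stood at 3.43, 3.71, 3.67 and 3.25 RPKM with Tubastatin A. The change from fresh cells to Tubastatin A was -1.11 (SE 0.15, adjusted p = 5.9e-05), and no Tubastatin A library reached a fresh one. Fen1, the nuclease that trims the flaps before ligation, had the lowest mean in fresh and vehicle libraries: 0.0945, 0.252 and 0.199 RPKM in fresh cells, 1.85, 1.69 and 1.34 RPKM with vehicle and 0.172, 0.244, 0.255 and 0.241 RPKM with Tubastatin A. Fresh and Tubastatin A libraries overlapped. Of its exon bases 84.2% also lie in exons of Tmem258 or Gm10143 on the other strand, and reads there may not be separable from theirs, so its level may not be that of the gene.

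The 3 subunits of RPA, which coats single-stranded DNA as one complex, rose alike in vehicle culture, by 2.01, 2.02 and 1.91 on the log2 scale for Rpa1, Rpa2 and Rpa3. With Tubastatin A they parted. Rpa2 measured 10.2, 21.3 and 13.3 RPKM in fresh cells, 57.9, 63.6 and 61.2 RPKM with vehicle and 3.66, 4.16, 3.71 and 4.84 RPKM with Tubastatin A, below fresh cells by 1.59 (adjusted p = 1.6e-05). Rpa1 measured 22.4, 19.2 and 17.4 RPKM in fresh cells, 97.1, 85.2 and 66.2 RPKM with vehicle and 29.9, 27.4, 21.7 and 26.6 RPKM with Tubastatin A. It was called higher than in fresh cells (0.40, adjusted p = 0.035), with 1 Tubastatin A library inside the fresh range, and the call was lost without any one of fresh libraries 2 and 3 and Tubastatin A libraries 1, 2 and 4 (adjusted p from 0.064 to 0.13). Rpa3 was not called, at 8.18 ± 0.418 RPKM against 7.68 ± 2.52 RPKM in fresh cells. With equal sums it was called higher than in fresh cells (0.75, adjusted p = 0.00033).

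All 5 genes of nucleotide supply rose in vehicle culture and fell with Tubastatin A. Rrm2, the small subunit of ribonucleotide reductase, which makes deoxynucleotides from ribonucleotides, had the highest level of the 42 genes in fresh and in vehicle libraries. It measured 45.9, 66.4 and 70.8 RPKM in fresh cells, 320.1, 367 and 246 RPKM with vehicle and 15.0, 20.7, 12.8 and 14.7 RPKM with Tubastatin A. Vehicle library 3 was the lowest of its group, and no 2 groups overlapped. The change from vehicle to Tubastatin A was -4.22 (SE 0.20, adjusted p = 1.1e-08), the second largest after Cdc6 on the log2 scale, and the level was 3.87 times below that of fresh cells. Rrm1, the large subunit, was at 8.54 ± 1.71, 36.1 ± 6.75 and 3.67 ± 0.679 RPKM in fresh cells, with vehicle and with Tubastatin A, and its call as lower than fresh was lost with equal sums (-0.41, adjusted p = 0.05).

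Tk1, the thymidine salvage kinase, had a wide rise and fall, with 0.871, 0.736 and 0.669 RPKM in fresh cells, 12.4, 16.2 and 12.5 RPKM with vehicle and 0.348, 0.472, 0.582 and 0.252 RPKM with Tubastatin A. Its rise in vehicle culture was 18.1-fold by mean RPKM. The call as lower than fresh (-0.32, adjusted p = 0.042, 1.83 times by mean RPKM) was lost when any library of the fresh group, or Tubastatin A library 1, 2 or 4, was left out (adjusted p from 0.054 to 0.12). Median ratio scaling also ended the call (-0.29, adjusted p = 0.063). Tyms, which makes thymidylate, and Dut, which removes dUTP, were not called against fresh cells, with 3.45 ± 0.275 against 3.69 ± 0.724 RPKM and 12.0 ± 0.956 against 11.3 ± 3.03 RPKM. With vehicle they stood at 23.4 ± 2.66 and 64.6 ± 6.99 RPKM. With equal sums both were called higher than in fresh cells, and Tyms changed sign (0.49, adjusted p = 0.0043).

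Of the chromatin factors, the CAF-1 subunits Chaf1a and Chaf1b, which place new histones behind the fork, rose more than 10-fold by mean RPKM in vehicle culture and were lower with Tubastatin A than in fresh cells. Chaf1b measured 2.02, 3.35 and 3.88 RPKM in fresh cells, 34.2, 35.9 and 28.0 RPKM with vehicle and 1.41, 1.16, 0.925 and 1.08 RPKM with Tubastatin A. Chaf1a stood at 1.36 ± 0.394, 14.3 ± 2.09 and 0.359 ± 0.120 RPKM, and 52.5% of its exon bases overlap exons of Ubxn6 on the other strand. Slbp, which binds the stem-loop of histone mRNAs, was the single gene not called in vehicle against fresh cells. It measured 26.7, 55.0 and 35.2 RPKM in fresh cells, 46.3, 46.0 and 35.4 RPKM with vehicle and 17.8, 14.7, 12.7 and 17.6 RPKM with Tubastatin A. Fresh library 2 exceeded every vehicle library, and the change was 0.17 (SE 0.23, adjusted p = 0.52); without fresh library 2 it was 0.45 and called (adjusted p = 0.043). Tubastatin A libraries lay below both groups (-1.39 against vehicle and -1.21 against fresh cells).

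The fork protection partners Timeless and Tipin differed in how far they stood from fresh cells. Timeless, which travels with the fork and couples polymerase to helicase, measured 5.16, 4.42 and 5.49 RPKM in fresh cells, 9.92, 11.4 and 10.6 RPKM with vehicle and 0.267, 0.393, 0.376 and 0.419 RPKM with Tubastatin A. It thus rose 2.12-fold in vehicle culture and stood 13.8 times below fresh cells with Tubastatin A. That log2 change, -2.14 (SE 0.11, adjusted p = 1.4e-08), was the largest fall of the 42 genes against fresh cells. Tipin, its partner in a stable complex, measured 28.4, 39.0 and 28.4 RPKM in fresh cells, 101, 122 and 125 RPKM with vehicle and 34.0, 35.4, 35.7 and 39.6 RPKM with Tubastatin A, and the last group overlapped fresh cells. The change of Tipin against fresh cells was 0.19 and not called, and with equal sums it was 0.89 and called higher (adjusted p = 1.1e-05). Clspn, the checkpoint adaptor claspin, had the lowest mean with Tubastatin A. Its libraries held 0.368, 0.429 and 0.699 RPKM in fresh cells, 2.26, 2.12 and 2.34 RPKM with vehicle and 0.0825, 0.0654, 0.0430 and 0.0112 RPKM with Tubastatin A, where 37, 27, 14 and 4 reads were counted. On the log2 scale its change from fresh cells to Tubastatin A was -0.51 (adjusted p = 0.00027), while mean RPKM was 9.87 times lower.

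**Figure D3:**
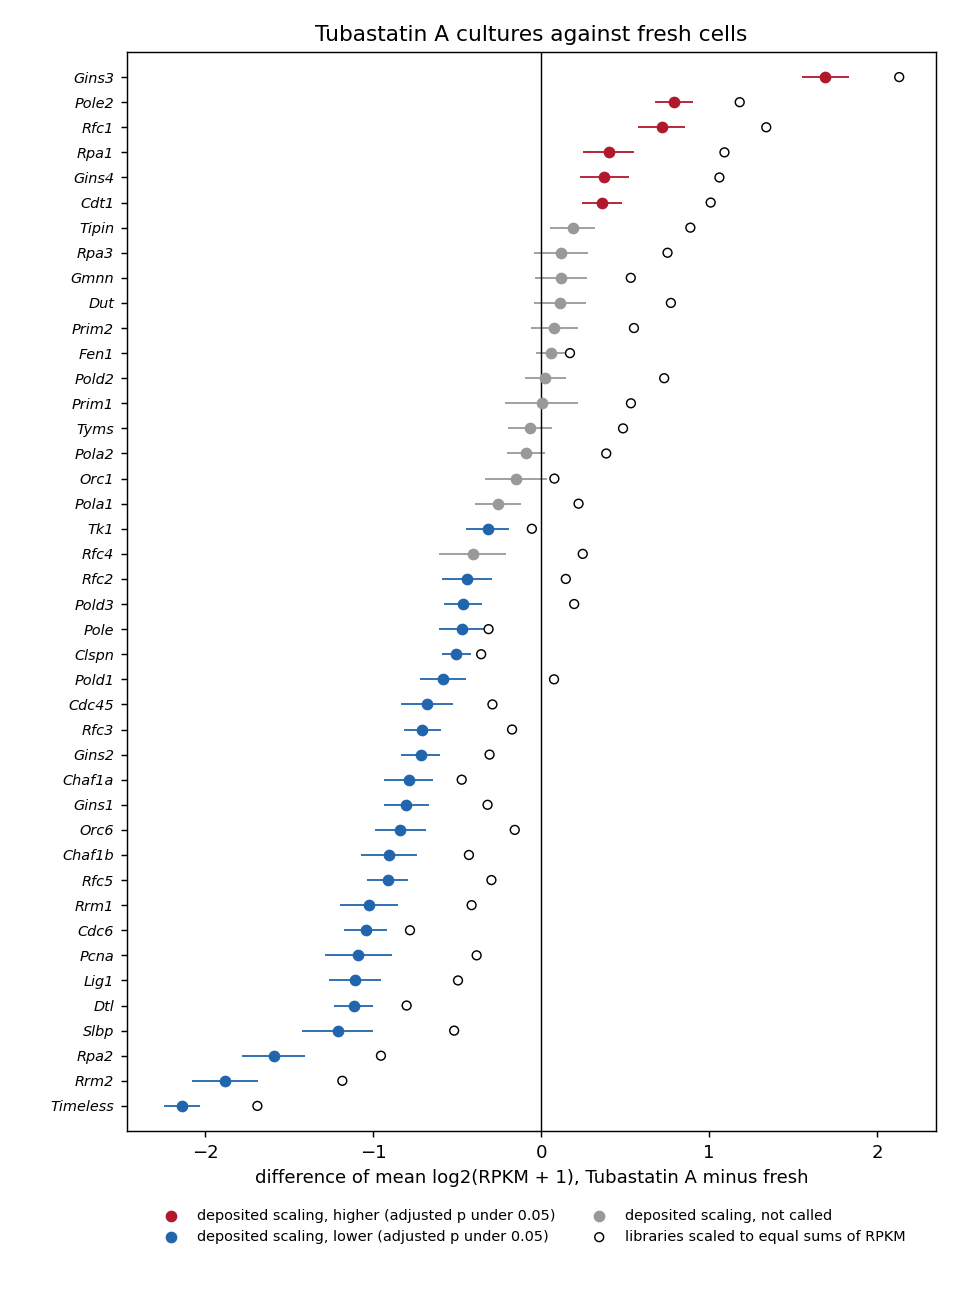
Change of each of the 42 genes in Tubastatin A cultures (n = 4) against fresh cells (n = 3), as the difference of mean log2(RPKM + 1) with its standard error (filled circles, coloured by call; red higher, blue lower, grey not called) and after scaling libraries to equal sums of RPKM (open circles). The filled circles run from -2.14 (Timeless) to 1.69 (Gins3), and equal sums place every gene farther to the right, so that 15 in place of 6 are called higher and 13 in place of 23 lower.

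Ratios between partners within a library do not depend on how libraries are scaled. For 11 complexes or partner pairs, the ratio of RPKM was taken for all 34 pairs of subunits, which were chosen with the levels known. In 17 of the 34 pairs the Tubastatin A and fresh ranges did not overlap, and in 13 of these the mean ratios differed more than 2-fold. These are 50% and 38.2% of the 34 pairs, beside 63.4% and 52.7% of all 81952003 pairs of genes in the table, so partner ratios separated no more often than those of genes at large. With 4 against 3 libraries the smallest p that an exact permutation test can give is 0.0571 (two-sided), which all 17 reached, so none could pass 0.05. Non-overlapping pairs made up 5 of 6 in GINS, 5 of 10 in the clamp loader, 2 of 3 in RPA and 0 of 6 in polymerase alpha and primase.

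The ratio of Gins3 to Gins2 was 0.936, 0.302 and 0.622 in fresh cells, 0.768, 0.815 and 0.725 with vehicle and 9.67, 6.05, 7.37 and 6.95 with Tubastatin A. That of Gins4 to Gins1, neither of which overlaps another gene's exons, was 5.63, 6.22 and 6.11 in fresh cells, 3.31, 3.10 and 3.46 with vehicle and 14.5, 18.4, 22.3 and 19.0 with Tubastatin A. Gins1 and Gins2 kept their ratio, with overlapping values of 1.65, 1.65 and 1.28 in fresh cells and 2.23, 1.36, 1.42 and 1.53 with Tubastatin A. In the clamp loader, Rfc1 over Rfc5 was 1.10, 0.499 and 0.700 in fresh cells, 1.11, 0.786 and 0.908 with vehicle and 3.07, 2.75, 2.66 and 2.35 with Tubastatin A, and all 4 ratios of Rfc1 to a small subunit separated. Among the small subunits themselves, 5 of 6 ratios overlapped.

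In RPA, the ratio of Rpa1 to Rpa2 was 2.19, 0.903 and 1.31 in fresh cells, 1.68, 1.34 and 1.08 with vehicle and 8.15, 6.60, 5.86 and 5.50 with Tubastatin A. The ratio of Rpa3 to Rpa2 also separated (means 0.527, 0.506 and 2.02), while Rpa1 over Rpa3 overlapped. The ratio of Tipin to Timeless was 5.49, 8.83 and 5.18 in fresh cells, 10.2, 10.7 and 11.8 with vehicle and 127, 90.1, 95.04 and 94.4 with Tubastatin A. Pole2 over Pole was 1.47, 3.56 and 1.30 in fresh cells, 1.71, 2.36 and 2.73 with vehicle and 26.6, 12.2, 26.8 and 93.9 with Tubastatin A, the last a wide spread in libraries with few reads of Pole. For ribonucleotide reductase, Rrm1 over Rrm2 was 0.145, 0.135 and 0.141 in fresh cells, 0.123, 0.110 and 0.115 with vehicle and 0.247, 0.218, 0.223 and 0.246 with Tubastatin A. For Gins3 over Gins2, Rfc1 over Rfc5, Rpa1 over Rpa2, Rpa3 over Rpa2 and Pole2 over Pole, vehicle and fresh ranges overlapped, and the Tubastatin A libraries stood above both.

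**Figure D4:**
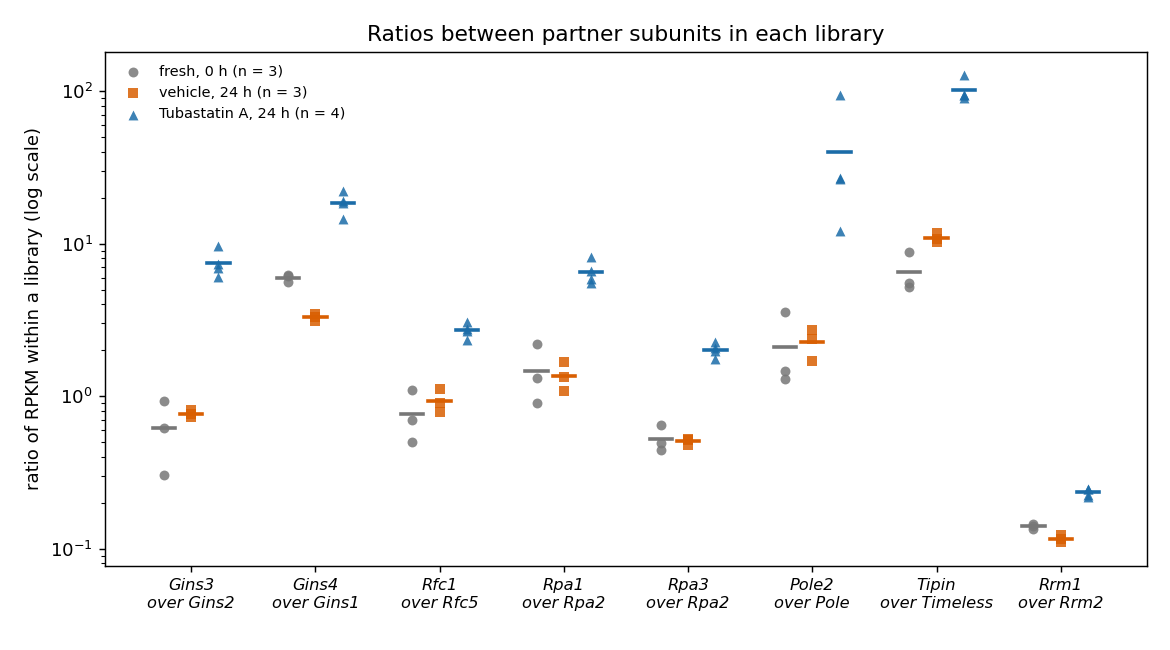
Ratio of RPKM between partner subunits within each library for 8 pairs (vertical axis: ratio, log scale; circles: fresh cells, n = 3; squares: vehicle cultures, n = 3; triangles: Tubastatin A cultures, n = 4; bars: group means). All 8 were taken from the 17 of 34 pairs whose Tubastatin A and fresh ranges did not overlap, and no overlapping pair is drawn. Among all pairs of genes in the table, 63.4% did not overlap. The Tubastatin A libraries lie above all fresh and vehicle libraries in each of the 8 drawn pairs, from 5.50 to 8.15 against at most 2.19 in Rpa1 over Rpa2.

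Most of the further origin and fork genes examined also fell with Tubastatin A. Of 34 gene symbols listed for them, 32 were in the table. In vehicle against fresh cells 28 were called higher and 3 lower (median 1.24), beside 32.0% and 35.0% of all genes. With Tubastatin A against vehicle 28 were called lower, 1 higher and 3 not called (median -1.27). Over all genes 29.7% were called lower and 29.6% higher there. Pclaf, a PCNA-binding factor, rose from 2.81 ± 0.652 to 36.4 ± 6.08 RPKM and stood at 0.238 ± 0.232 RPKM with Tubastatin A, which was -4.92 on the log2 scale against vehicle (adjusted p = 2.3e-09). Mcm10, an initiation factor, was at 0.494, 8.80 and 0.0856 RPKM in fresh cells, with vehicle and with Tubastatin A. Asf1b, a histone chaperone that hands histones to CAF-1, was at 5.22, 59.4 and 1.90 RPKM. The single gene higher with Tubastatin A than with vehicle was Orc4, chosen for mention after its values were seen, an origin recognition subunit that was lower in vehicle than in fresh cells (15.1, 11.1 and 14.3 RPKM in fresh cells, with vehicle and with Tubastatin A). Wdhd1, which links polymerase alpha to the helicase, and Dna2, a flap nuclease, rose by 2.55 and 2.54 in vehicle culture and fell by 2.17 and 2.25 with Tubastatin A.

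Nucleotide metabolism outside the 42 genes moved the same way, with smaller medians. Of 18 other enzymes of deoxynucleotide metabolism, 14 were called higher and 1 lower in vehicle against fresh cells (median 1.12). With Tubastatin A against vehicle 16 were called lower and none higher (median -1.11). Over all genes 32.0% were called higher in the first comparison and 29.7% lower in the second. Dck, the deoxycytidine salvage kinase, measured 7.56, 5.53 and 7.26 RPKM in fresh cells, 31.4, 35.5 and 27.3 RPKM with vehicle and 2.78, 2.82, 2.62 and 2.33 RPKM with Tubastatin A. The 2 serine hydroxymethyltransferases, which supply one-carbon units for thymidylate, differed: cytosolic Shmt1 was at 29.2, 50.5 and 8.96 RPKM in fresh cells, with vehicle and with Tubastatin A, and mitochondrial Shmt2 at 31.0, 177 and 97.0 RPKM. Against fresh cells Shmt1 was lower with Tubastatin A (-1.60, adjusted p = 9.2e-08) and Shmt2 higher (1.62, adjusted p = 6.0e-07). Dctpp1, a dCTP pyrophosphatase, rose by 3.23 in vehicle culture, to 208 ± 26.0 RPKM, and fell to 39.9 ± 3.84 RPKM with Tubastatin A.

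Of 17 genes of de novo purine and pyrimidine synthesis, 15 were called higher and 1 lower in vehicle against fresh cells (median 1.15). With Tubastatin A against vehicle 14 were called lower and 2 higher (median -1.0). Over all genes 32.0% were called higher in the first comparison and 29.7% lower in the second. Adsl and Atic, enzymes of late purine synthesis, lay between fresh and vehicle levels with Tubastatin A. In fresh cells, with vehicle and with Tubastatin A, Adsl was at 15.3, 59.7 and 37.8 RPKM and Atic at 0.921, 5.68 and 2.92 RPKM. Pfas, another purine enzyme, was at 1.49, 6.02 and 1.64 RPKM, its Tubastatin A level not called against fresh cells (adjusted p = 0.53). The CTP synthases went opposite ways with Tubastatin A against vehicle: Ctps fell by 1.0 and Ctps2, chosen after its values were seen, rose by 0.82. Impdh1, an enzyme of guanine nucleotide synthesis chosen in the same way, was also higher with Tubastatin A, at 55.5 ± 1.22 against 41.3 ± 3.12 RPKM. In Tubastatin A against fresh cells 7 of the 32 origin and fork genes were called higher and 10 lower. For the 18 deoxynucleotide enzymes these counts were 5 and 8, and for the 17 genes of de novo synthesis 5 and 2. All are for the deposited scaling alone, beside 29.8% of all genes called higher and 35.2% called lower.

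Single libraries moved many of the 42 genes together. Their summed RPKM was 380.0, 553.4 and 449.8 in fresh cells, 1816, 1983 and 1685 with vehicle and 321.7, 334.2, 300.6 and 341.4 with Tubastatin A. Fresh library 2 was the highest of its group in 24 of the 42 genes (57.1%, against 35.3% of all genes) and fresh library 1 the lowest in 23 (54.8%, against 34.3%). Vehicle library 2 was the highest of its group in 28 genes (66.7%, against 28.7% of all genes). The median coefficient of variation of the 42 genes was 25.3% in fresh, 10.8% in vehicle and 10.5% in Tubastatin A libraries.

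Markers of the sorted cells and of other cell types moved between the groups as well. The 6 satellite cell markers, among them Pax7 and Myf5, summed to 1836 to 2075 RPKM in fresh, 445.3 to 469.9 RPKM in vehicle and 274.8 to 294.2 RPKM in Tubastatin A libraries. The largest part of the fresh sum was Sdc4 (mean of 1143 RPKM), while Pax7 stood at 22.4 RPKM. In vehicle against fresh cells 5 were called lower and Itga7 was not called. With Tubastatin A against vehicle 5 were called lower and Sdc4 was not called. The 7 fibro-adipogenic markers summed to 1640 to 2104, 63.8 to 80.8 and 86.0 to 117.3 RPKM in fresh, vehicle and Tubastatin A libraries. Nearly all of the fresh sum was Gsn and Col3a1 (means of 1362 and 407 RPKM). The other fresh means ran from 0.117 RPKM (Pdgfra) to 28.2 RPKM (Col1a1). Against vehicle, 2 of the 7 were called higher with Tubastatin A (Gsn, from a mean of 34.7 to 97.3 RPKM, and Col1a1), 1 lower (Col3a1, from 38.0 to 6.50 RPKM) and 4 not called. The 9 endothelial markers summed to 39.8 to 52.6, 3.15 to 4.37 and 5.65 to 6.72 RPKM, and Tek alone was called higher with Tubastatin A than with vehicle (from 0.879 to 4.21 RPKM), with Egfl7 lower and 7 not called. The 5 of 9 immune markers in the table summed to 11.3 to 23.6, 0.880 to 1.37 and 2.67 to 4.30 RPKM, where Cd68 was called higher (from 0.759 to 2.96 RPKM) and 4 were not called. Against fresh cells, 6 of 7, 9 of 9 and 4 of 5 markers of these 3 lists were called lower with vehicle, beside 35.0% of all genes. Both Schwann and erythroid markers in the table summed to at most 0.361 RPKM in every cultured library and to 4.64 to 7.97 and 7.24 to 29.5 RPKM in fresh cells. Pericyte and smooth muscle markers (5 of 5) summed to 196.2 to 243.3, 174.2 to 238.9 and 10.8 to 61.1 RPKM, nearly all of it Acta2 (means of 212, 212 and 23.0 RPKM). The 4 others, Rgs5, Myh11, Kcnj8 and Abcc9, were all called lower with vehicle than in fresh cells, Rgs5 from 7.69 to 0.0599 RPKM, and none of them was called with Tubastatin A against vehicle. Myofibre markers (6 of 6) summed to 48.2 to 56.4, 16.8 to 24.7 and 5.00 to 382.4 RPKM. The highest sums of the pericyte and myofibre lists with Tubastatin A were both in library 2, without which 42 genes were called lower than with vehicle, and 4 higher and 21 lower than in fresh cells. No marker was listed at exactly 0, but some of the lowest values were the same in libraries of different depth. Hba-a1 stood at 0.0111 RPKM in vehicle library 1 and in Tubastatin A libraries 1, 2 and 3. Such values may stand for no reads, so a value above 0 does not show that a marker was detected. The part of these cell types in the changes of the replication genes was not tested.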

How the data were processed

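The authors deposited 1 table of RPKM for 12803 genes and 10 libraries. The submitters' processing notes list mm10 as the build and name STAR, Trim Galore, edgeR and featureCounts (Subread); versions and settings are not given in the sources used here. Per the labels' protocols, libraries were made from total RNA with SMART-Seq v4 and Ovation kits and read as pairs. From the steps of the values and exon lengths of GENCODE M21, whole read numbers could be recovered for 11887 genes (92.8%, tolerance 0.05 reads), the 42 genes among them. Values nearest to no reads were accepted without that tolerance. None of the 42 genes had such a value, since their lowest number was 4 reads. A gene of 1 kb with 1 read stands at 0.016 to 0.0339 RPKM.

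The 42 genes and all lists were chosen with earlier results of these data known. Genes outside the 42 were named by lowest p within 3 lists (up to 5 for Tubastatin A against vehicle and 3 for vehicle against fresh), unless said otherwise. Over all genes, log2(RPKM + 1) was fitted with limma 3.58.1 (R 4.3.3, variance trend, 1 model for the 3 groups), without a filter and with Benjamini-Hochberg adjustment at 0.05. The fit was tested on simulated data. Alternatives were pseudocounts of 0.1 and 5, a mean of at least 1 RPKM, equal sums of RPKM, median ratio scaling, only the groups compared, the replicate number as a block, voom on recovered reads (11764 genes, mean of 10 reads or more) and each library left out. Ratios, motif counts and figures used Python 3.11.15 with pandas 2.3.3, numpy 2.4.6, scipy 1.17.1 and matplotlib 3.10.9. Exon overlaps were taken from GENCODE M21 and promoter windows from RefSeq.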

Additional observations from a re-analysis of the deposited data

Results flagged for a closer look

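In each of the 42 genes, the highest and the lowest of the 4 Tubastatin A libraries were compared with the nearest other library by Dixon's ratio of gap to range. Chance alone gives about 1 such value in 20 groups, and 3 of 42 exceeded it. Pold3, a polymerase delta subunit, stood at 10.65 RPKM in library 4, above the 3 others. Pole2, the second subunit of polymerase epsilon, stood at 2.884 RPKM in library 4, again above the 3 others. Fen1, the flap nuclease, stood at 0.1721 RPKM in library 1, below the 3 others. Groups of 3 were not tested in this way.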

How the results depend on the processing

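All 42 genes were called lower with Tubastatin A than with vehicle under each alternative that tested all of them, and 40 of 40 after the filter on low levels. In vehicle against fresh cells 41 to 42 were called higher when 1 library was left out (all 42 without fresh library 2), 39 after the filter and 41 with voom. Against fresh cells, leaving out 1 Tubastatin A or fresh library gave 4 to 9 genes higher and 21 to 23 lower, with 9 higher without fresh library 2, where Prim1 (0.33), Rpa3 (0.34), Dut (0.30) and Tipin (0.34) were also called higher and Pola1 (-0.38) lower. Voom gave 6 higher and 23 lower. Equal sums of RPKM gave 15 higher and 13 lower and turned the sign of Pola2 (0.39), Pold1 (0.077), Pold3 (0.20), Rfc2 (0.15) and Tyms (0.49). The sign also turned in Orc1 (0.079), Pola1 (0.22) and Rfc4 (0.25), which were not called under either scaling. Equal sums move all genes against fresh cells upward by construction. A pseudocount of 5 ended the calls of Pole and Tk1 (-0.12 and -0.09).

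With the replicate number as a block, 41 genes were higher in vehicle than in fresh cells, 42 lower with Tubastatin A than with vehicle, and 5 higher and 22 lower with Tubastatin A than in fresh cells, without Gins4 and Tk1. Over all genes the block gave 8503, 7136 and 7888 calls, against 8580, 7594 and 8314 without it. The numbers were not treated as pairs, because no label ties animals of different groups. Same-numbered deviations correlated from -0.17 to 0.33, and 10 of 18 comparisons of a library with another group were best with its own number. Whether libraries of the same number share an effect was not tested. Genes with few reads, such as Clspn and Pole with Tubastatin A, are limited by counting.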
